A study of Mus musculus with 2 samples.

Results

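Most of the mammalian genome lies between genes, and the longest stretches without protein-coding genes are called gene deserts. Regulatory DNA in such stretches, above all enhancers, can act on a promoter many kilobases away, and several developmental genes are known for enhancers of this kind. Accessible chromatin is DNA that is not tightly packed on nucleosomes. It marks promoters, enhancers and sites bound by the insulator protein CTCF alike, so accessibility alone does not say which of these a region is, in which cells it is open, or which gene it serves.

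The regions described here are the intergenic accessible regions of the embryonic heart that lie far from any protein-coding gene start. ATAC-seq, in which a transposase inserts sequencing adapters into open DNA, was performed on wildtype (WT) FVB mouse embryonic hearts at E11.5, with no treatment given in the labels. There were 2 replicates, each a pair of whole hearts, and both belong to the same group, so no condition was compared with another. Dissociated whole hearts mix cardiomyocytes with other cells, and reads of FVB mice were mapped to the GRCm38/mm10 reference, which comes from another strain. Each replicate 1 peak was trimmed to its overlap of at least 1 bp with replicate 2 peaks, which gave 96639 shared regions on autosomes. A shared region was kept if it touched no protein-coding gene body and if its midpoint was more than 100 kb from the nearest protein-coding transcript start (GENCODE M21). These criteria left 12741 distal intergenic regions, 13.2% of all autosomal shared regions. Judged alone, replicate 1 had 16043 such peaks and replicate 2 had 15556.

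The peak lists held 118027 peaks in replicate 1 and 114783 in replicate 2 and gave no read totals, so depth is unknown beyond what fold enrichment shows. Fold enrichment is the authors' ratio of reads piled up at a summit to the genome-wide mean, after adding 1 to each, and a single read is worth about 0.272 in replicate 1 and 0.251 in replicate 2. As a check of the tissue label, a shared region lay within 1 kb of a start for 8 of 8 cardiomyocyte markers, 6 of 6 endothelial markers and 4 of 4 epicardial markers. The same held for 4 of 5 autosomal blood markers, 4 of 6 neuronal markers, 2 of 6 liver markers and 2 of 4 skeletal muscle markers, against 67.8% of all 20698 autosomal protein-coding genes. The median of the highest fold enrichment at such starts was 15.9 and 12.3 (replicates 1 and 2) for the cardiomyocyte markers, 17.1 and 14.6 for the neuronal ones and 24.4 and 24.6 over all genes. It was lower for the liver markers (6.11 and 6.16) and skeletal muscle markers (8.15 and 7.92), each over 2 genes. Endothelial markers had 12.2 and 8.80, epicardial markers 13.4 and 12.6, and blood markers 16.8 and 16.5. An accessible start does not show that the gene is expressed, and the part of non-cardiac cells in the distal regions was not tested.

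To show what these regions consist of, the strongest region of each of the 5 gaps between genes that held the most distal regions is printed first. A gap is the stretch between consecutive protein-coding gene bodies and is named by the genes that flank it. Each sequence covers the replicate 1 summit with 50 bp on each side, on the plus strand of GRCm38. The windows are chr10:16601038-16601138 between *Nmbr* and *Cited2*, chr8:8282314-8282414 between *Slc10a2* and *Efnb2*, and chr3:151156662-151156762 between *Adgrl2* and *Adgrl4*. The other two are chr4:30682548-30682648 between *Epha7* and *Map3k7* and chr2:48498255-48498355 between *Zeb2* and *Acvr2a*. Capitals mark matches to a GATA motif (AGATAA) in the first 3, to an NKX2-5 motif (TNAAGTG) in the second and to a TEAD motif (GGAATG) in the third, on either strand. The last 2 held no match to the 11 motifs searched.
Nmbr-Cited2 gap: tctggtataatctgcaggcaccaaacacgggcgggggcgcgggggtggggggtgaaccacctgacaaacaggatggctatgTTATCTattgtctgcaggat
Slc10a2-Efnb2 gap: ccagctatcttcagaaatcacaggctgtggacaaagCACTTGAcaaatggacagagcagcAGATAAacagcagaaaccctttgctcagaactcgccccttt
Adgrl2-Adgrl4 gap: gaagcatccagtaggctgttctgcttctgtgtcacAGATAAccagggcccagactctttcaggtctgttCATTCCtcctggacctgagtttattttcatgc
Epha7-Map3k7 gap: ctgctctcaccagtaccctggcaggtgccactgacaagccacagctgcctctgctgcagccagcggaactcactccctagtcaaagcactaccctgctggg
Zeb2-Acvr2a gap: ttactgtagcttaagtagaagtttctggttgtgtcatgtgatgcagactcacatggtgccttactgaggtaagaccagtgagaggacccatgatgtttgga

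A second set shows the strongest regions. The windows chr15:68363385-68363485, chr1:7398060-7398160, chr1:23256175-23256275 and chr13:107890133-107890233 belong to 4 of the 5 strongest distal regions, which sit at starts annotated as non-coding. Their GC contents were 68.3%, 54.5%, 78.2% and 69.3%, against 44.6% to 61.4% in the first set, so that the second of them lies within the range of the first set. The remaining one of the 5, near *Arhgap12*, had 63.4% GC and is not printed. The last window, chr13:28418057-28418157 between *Gm11361* and *Sox4*, belongs to the strongest distal region with a match to the CTCF motif (CCANNAG followed directly by NNGGC), which is in capitals, and had 54.5% GC.
Zfat-Khdrbs3 gap: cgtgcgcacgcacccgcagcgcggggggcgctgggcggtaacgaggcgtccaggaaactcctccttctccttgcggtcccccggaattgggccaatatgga
Pcmtd1-Sntg1 gap: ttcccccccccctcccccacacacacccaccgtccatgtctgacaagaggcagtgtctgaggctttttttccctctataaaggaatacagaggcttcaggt
4933415F23Rik-Ogfrl1 gap: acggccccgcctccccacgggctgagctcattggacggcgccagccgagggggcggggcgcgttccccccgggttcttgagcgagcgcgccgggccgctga
Kif2a-Ndufaf2 gap: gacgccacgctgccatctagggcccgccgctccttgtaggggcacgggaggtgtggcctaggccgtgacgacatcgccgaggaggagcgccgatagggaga
Gm11361-Sox4 gap: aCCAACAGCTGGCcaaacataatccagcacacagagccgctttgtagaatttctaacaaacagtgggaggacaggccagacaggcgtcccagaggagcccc

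Distal regions were of moderate height. Their median fold enrichment was 5.98 in replicate 1 (quartiles 4.62 and 8.42) and 5.28 in replicate 2 (quartiles 4.27 and 7.29). Intergenic regions at 10 to 100 kb from a start had medians of 6.25 and 5.53, which is about 1 read step higher and less than the difference between the replicates. Regions within 1 kb of a start, most of them promoters, had medians of 19.6 and 19.9. With −log10 q of at least 10 in both replicates as a stricter criterion, 4779 distal regions remained, or 37.5%, against 36.9% of regions in gene bodies more than 10 kb from a start, 41.2% of intergenic regions at 10 to 100 kb and 45.7% of all autosomal shared regions, where those within 1 kb of a start reached 80.0%. Across distal regions, which are not independent of each other, Spearman's rho between the heights in replicate 1 and replicate 2 was 0.749, against 0.770 over all autosomal shared regions.

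Most far peaks of a replicate were found in the other, about as often as peaks in gene bodies more than 10 kb from a start. Of the far peaks, 77.7% in replicate 1 and 80.3% in replicate 2 were shared, against 77.0% and 81.0% of such gene body peaks and 80.9% and 82.8% over all autosomal peaks, where those within 1 kb of a start reached 94.6% and 94.3%. The unshared far peaks were low, with medians of 4.07 (replicate 1) and 3.77 (replicate 2) and a maximum of 12.0 and 7.79. The summits of both replicates were a median of 48 bp apart, and 51.5% of distal regions had them within 50 bp. Because a peak can be cut by several peaks of the other replicate, the 12741 regions rest on 12474 peaks of replicate 1 and 12492 of replicate 2, and pieces of the same peak share its fold enrichment.

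Accessible regions thinned out with distance from genes, in both replicates, while their height hardly changed. Outside gene bodies, 3.62 shared regions per 100 kb lay at 10 to 25 kb from a protein-coding start, 2.63 at 100 to 200 kb, 1.55 at 300 to 500 kb and 0.557 at 1000 to 3000 kb. In replicate 1 alone the density fell from 3.29 peaks per 100 kb at 100 to 200 kb to 0.685 beyond 1000 kb, and in replicate 2 from 3.15 to 0.745. The density at 100 to 200 kb was 2.98 times that beyond 500 kb (2.95 and 2.78 in the replicates alone). Median fold enrichment stayed between 5.70 and 6.11 in replicate 1 over the 5 bins beyond 100 kb and at 5.28 in all of them in replicate 2. The plot of density by distance shows the replicates nearly on top of each other. Between neighbouring bins of unequal width, the absolute drop in shared density was largest at the limit itself, from 3.32 at 50 to 100 kb to 2.63 at 100 to 200 kb. Relative to the bin before, density dropped most at the last step, from 1.04 at 500 to 1000 kb to 0.557 at 1000 to 3000 kb.

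**Figure D1:**
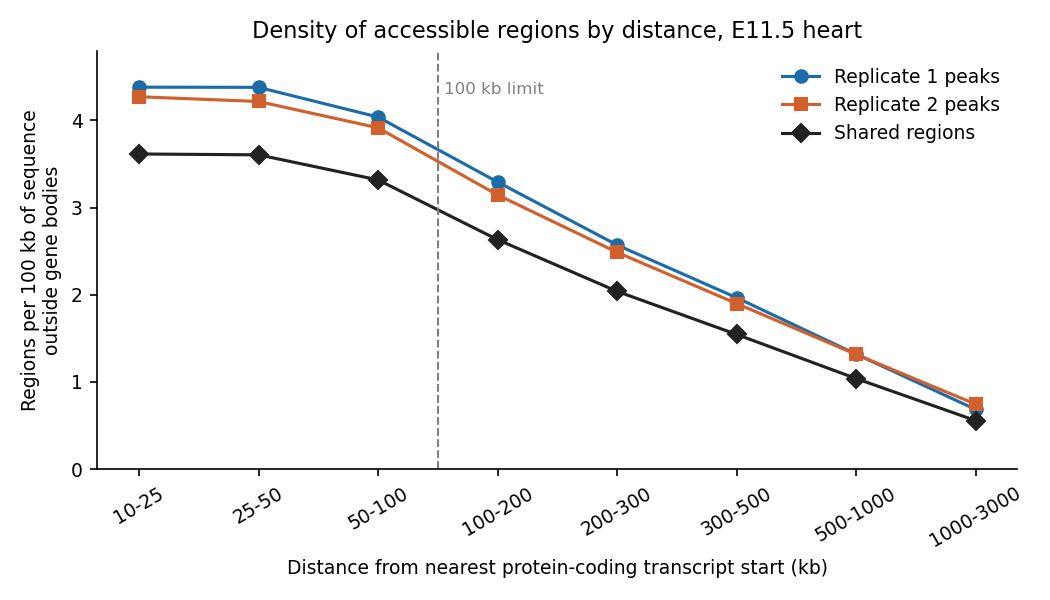
Density of accessible regions (regions per 100 kb of sequence outside protein-coding gene bodies) against distance from the nearest protein-coding transcript start (kb, bins of unequal width), for replicate 1 peaks, replicate 2 peaks and shared regions. All 3 lines decline from 4.38, 4.27 and 3.62 at 10 to 25 kb to 0.685, 0.745 and 0.557 at 1000 to 3000 kb.

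The median distance of a distal region from the nearest start was 228 kb (quartiles 149 and 386 kb). Beyond 500 kb lay 2091 regions (16.4%), and beyond 1000 kb 422 (3.31%). The region farthest from any start, chr14:91326702-91327152, lay 2559 kb from *Pcdh9* in the gap between the protocadherin genes *Pcdh20* and *Pcdh9*, with a fold enrichment of 12.8 and 11.1 in replicates 1 and 2. Another region of that gap, chr14:90832178-90832664, lay 2361 kb from *Pcdh20* with 6.25 and 4.78, and the next, chr1:102404952-102405368 between *Cntnap5b* and *Cdh20*, lay 2307 kb from *Cntnap5b* with 6.79 and 5.78. All 3 were thus near or above the median height of distal regions.

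Near the limit itself, the regions just inside lay 100.01 kb from *Ankrd55* (8.96 and 6.54) and 100.02 kb from *Slc30a5* (6.79 and 6.79). Just outside were regions 99.99 kb from *4930544G11Rik* (20.9 and 28.2) and 99.97 kb from *Sntn* (4.35 and 3.52). The lowest distal regions by mean fold enrichment, near *Cdh9* and *Dcc*, had 2.99 and 3.02 each, and the lowest value of any distal region in either replicate was 2.72.

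Several of the strongest distal regions coincided with the starts of annotated non-coding transcripts. Here and for the gaps, regions are ranked by the lower fold enrichment of the replicates. A region between *Zfat* and *Khdrbs3*, chr15:68361206-68364025, reached 54.9-fold enrichment in replicate 1 and 52.3 in replicate 2 and overlapped the lincRNA gene *Gm20732*. A region 309 kb from *Pcmtd1*, chr1:7396823-7398968, reached 53.2 and 51.8 and overlapped the lincRNA gene *Gm26901*. A region 127 kb from *Ogfrl1*, chr1:23255701-23257645, reached 51.6 and 52.3. These heights were above the promoter medians given above. Among the 10 regions with the highest lower value of the replicates, with 37.2 to 54.9 in replicate 1 and 38.7 to 52.3 in replicate 2, 6 lay within 1 kb of a long non-coding RNA (lncRNA) start and 7 overlapped a lncRNA gene, against 3.61% and 17.4% of all distal regions and 4.67% and 11.2% of all autosomal shared regions. Their median GC content around the summit was 60.4%. Among the first 100 such regions, 19 lay within 1 kb of a lncRNA start and 32 overlapped a lncRNA gene.

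Some of these starts are coding in another annotation. The region chr13:107888151-107891952 in the gap between *Kif2a* and *Ndufaf2* (47.0 and 44.2), whose sequence is among the GC-rich windows above, lay 13 bp from a RefSeq protein-coding start of *Zswim6*, a zinc finger gene that GENCODE M21 lists as a processed transcript. The region near *Zfp97* (38.6 and 38.7) lay 77 bp from a RefSeq protein-coding start of *Gm5165*, a lincRNA gene in M21. The regions near *Arhgap12* (46.2 and 45.5), *Jun* (41.3 and 39.5, in the antisense gene *Junos*) and *Npvf* (37.2 and 41.0) stayed more than 100 kb from RefSeq protein-coding starts. The other two, near *Tmem161b* (46.2 and 42.5) and *Zfp960* (43.2 and 39.97), were 76139 and 53744 bp from such a start. Over all distal regions, 158 (1.24%) fell in a RefSeq protein-coding gene body, 23 (0.181%) within 1 kb of a RefSeq protein-coding start, and 12231 (96.0%) met both criteria in both annotations.

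LncRNA genes covered more of the distal regions than of accessible regions in general, but lncRNA starts did not. Of distal regions, 2218 (17.4%) overlapped a lncRNA gene, against 11.2% of all autosomal shared regions, and 16.3% of the intergenic regions at 10 to 100 kb. Only 460 (3.61%) lay within 1 kb of a lncRNA start, against 4.67% of all autosomal shared regions. Regions at lncRNA starts had median fold enrichments of 6.79 and 6.03, and the other distal regions had 5.98 and 5.28. In no annotated gene of any kind lay 10431 regions (81.9%). The same held for 82.3% of intergenic regions at 10 to 100 kb and 31.5% of all autosomal shared regions. Most distal regions were therefore neither in a transcribed locus of the annotation nor at a known start. The criteria already exclude protein-coding gene bodies and starts, so this follows in part from the selection.

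The 982 non-coding genes that held a distal region were led by *Pvt1* next to *Myc*, with 42 regions of 3.53 to 19.8 in replicate 1 and 3.02 to 24.1 in replicate 2. *Gm31135* between *Slc10a2* and *Efnb2* held 30, *2610307P16Rik* between *Gm11361* and *Sox4* held 27, *Mir99ahg*, the host gene of a microRNA cluster, held 23, and *3110039I08Rik* held 17. These genes are 340, 440, 426, 537 and 390 kb long. Which of the regions belong to them is not given by position.

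The base composition and motifs of distal regions differed from both promoters and the surrounding DNA. Windows of 50 bp on each side of the summit had a median GC content of 47.5%, against 64.4% within 1 kb of a start, 50.5% in intergenic regions at 10 to 100 kb, and 39.6% in 73690 windows of the same length placed every 10 kb of the same distal sequence. A CpG was missing from 34.8% of the distal windows and from 23.6% of the windows of all autosomal shared regions. Repeats made up a mean of 12.7% of a distal region and 38.6% of the placed windows. The mean was similar for intergenic regions at 10 to 100 kb (11.8%) and over all autosomal shared regions (11.1%). Reads of low mapping quality were removed by the authors, which lowers the number of peaks that can be called in repeats.

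Motifs of GATA, MEIS, TEAD and NKX2-5 were more frequent in distal windows than in intergenic regions nearer to genes, and CTCF motifs were less frequent. The GATA motif AGATAA, bound by factors such as GATA4, occurred in 13.8% of distal windows at replicate 1 summits and in 13.2% at replicate 2 summits. It occurred in 11.2% and 11.2% of windows of intergenic regions at 10 to 100 kb, in 9.96% and 9.83% over all autosomal shared regions, and in 7.70% of placed windows. The motif of MEIS factors, TGACAG, showed the same order, with 15.3% and 14.9% of distal windows, 12.4% and 12.1% at 10 to 100 kb, and 6.004% of placed windows. For TEAD (GGAATG) the shares were 9.80% and 9.49% against 8.43% and 8.37% at 10 to 100 kb, and for NKX2-5 (TNAAGTG) 7.94% and 8.06% against 6.26% and 6.23%. Placed windows had a TEAD match in 5.65% and an NKX2-5 match in 5.97%. For each of these motifs, the differences between distal and 10 to 100 kb windows exceeded those between the summits of the replicates. Regions in gene bodies more than 10 kb from a start lay closer to the distal ones, with GATA in 11.6% and 11.4% of windows, MEIS in 14.1% and 13.9%, TEAD in 9.02% and 8.88%, and NKX2-5 in 7.22% and 6.95%. No test was run, because regions of the same samples are not replicates of each other.

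The CTCF pattern went the other way. It was found in 1.58% of distal windows at replicate 1 summits and 1.40% at replicate 2 summits, against 3.65% and 3.25% of intergenic regions at 10 to 100 kb and 0.251% of placed windows. By distance, it fell from 5.15% of shared regions at 10 to 25 kb to 2.52% at 50 to 100 kb, 1.71% at 100 to 200 kb and 1.14% at 500 to 1000 kb. Beyond 1000 kb, with only 422 regions, it was 1.42%. Median GC content fell over the same bins, from 51.5% at 10 to 25 kb to 45.5% at 500 to 1000 kb and 44.6% beyond, and its part in the motif shares was not tested.

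For HAND, ETS and AP-1 the shares lay closer together. HAND factors' E-box CATCTG occurred in 9.61% and 9.91% of distal windows against 9.07% and 8.96% at 10 to 100 kb, the ETS motif GGAAGT in 8.59% and 8.46% against 8.06% and 8.49%, and the AP-1 motif TGANTCA in 5.09% and 4.75% against 5.59% and 5.33%. Placed windows held them in 7.42%, 5.41% and 3.01%. The other motifs were rare. TBX5 (AGGTGTNA) was found in 1.26% and 1.27% against 1.31% and 1.28% at 10 to 100 kb, MEF2 in 1.08% and 1.23% against 1.04% and 0.916%, and the SRF CArG box in 0.581% and 0.542% against 0.710% and 0.737%. Their shares of placed windows were 0.977% for TBX5, 0.191% for MEF2 and 0.558% for the SRF CArG box. For HAND, AP-1 and the SRF CArG box the differences also exceeded those between the summits of the replicates. AP-1 and the SRF CArG box were the lower in distal windows. All motifs were searched on both strands and independently, so that a base can belong to matches of several motifs, and a match is a description of letters and not of binding.

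**Figure D2:**
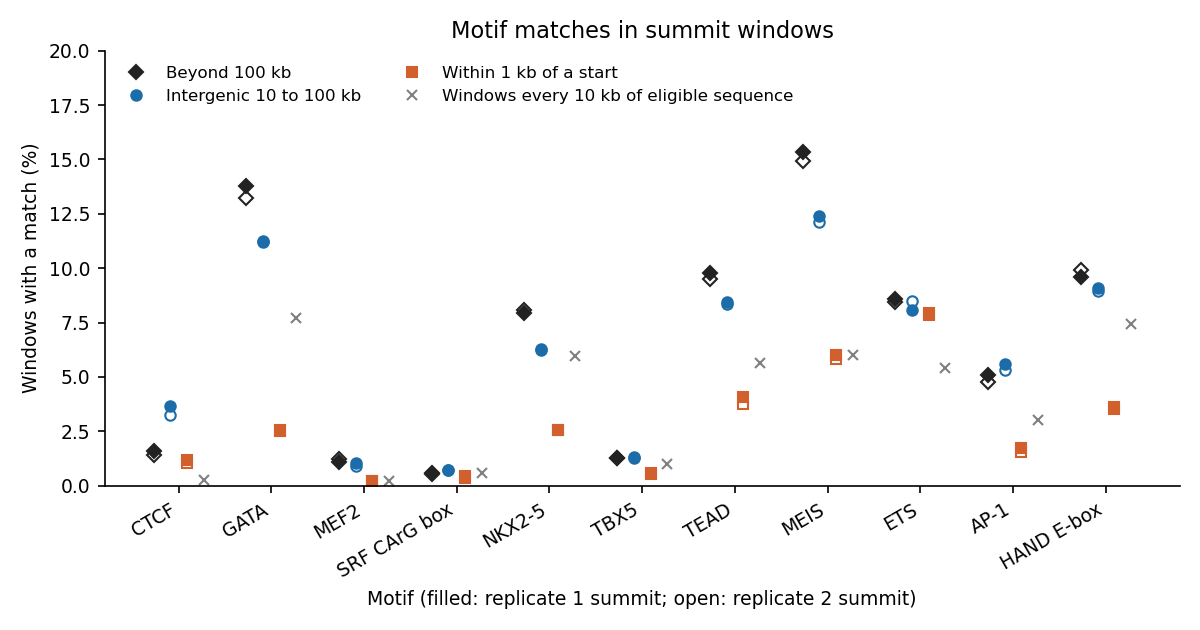
Share of summit windows (%) with at least 1 match to each of the 11 motifs, for distal regions beyond 100 kb, intergenic regions at 10 to 100 kb, regions within 1 kb of a start, and windows every 10 kb of eligible sequence. Filled symbols use replicate 1 summits and open symbols replicate 2 summits, the crosses have no summit, and the distal regions lie highest for GATA (13.8% and 13.2%) and MEIS (15.3% and 14.9%) and below the 10 to 100 kb regions for CTCF (1.58% and 1.40%).

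The GATA motif was also more frequent among higher distal regions. Ordered from low to high by the lower fold enrichment of the replicates and divided into 4 groups of equal size, distal regions had a GATA match in 11.0%, 13.7%, 13.6% and 16.9% of windows, and a MEIS match in 14.2%, 14.8%, 14.9% and 17.6%. CTCF matches were in 1.44%, 2.01%, 1.63% and 1.22%. The median length of a region grew from 213 bp in the lowest group to 575 bp in the highest.

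Distal regions were spread over many gaps but not evenly. The sequence in which a distal region could lie, meaning bases without N outside protein-coding gene bodies and over 100 kb from their starts, is called eligible sequence here. It amounted to 737 Mb, with 1.73 distal regions per 100 kb (2.18 in replicate 1 alone and 2.11 in replicate 2 alone). By chromosome, the density ran from 1.39 on chromosome 5 to 2.42 on chromosome 13. Of 1720 gaps with eligible sequence, 1369 (79.6%) held a distal region and 475 (27.6%) held at least 10. These 475, picked by their counts, held 73.5% of all distal regions. The median was 4 per gap.

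Long gaps held more regions, with a Spearman rho of 0.747 between count and eligible sequence across gaps. Density differed widely as well. Among the 449 gaps with over 500 kb of eligible sequence, the median was 1.28 regions per 100 kb with quartiles of 0.621 and 2.27. The highest such gap reached 6.03, the lowest with any region had 0.0870, and 12 held none. The 50 gaps with the most regions held 17.6% of them in 12.1% of the eligible sequence. These gaps were picked by their counts, so a share of regions above that of sequence is partly built in. Neighbouring distal regions of a gap were a median of 17.95 kb apart, and 53.7% had another within 10 kb. Pieces of a cut peak count as neighbours here, and the same share was not computed for regions nearer to genes.

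The 15 gaps with the most distal regions are described by their flanking genes. The gap between *Nmbr* and *Cited2*, chr10:14770851-17723217, held the most, with 85 shared regions, 108 peaks in replicate 1 alone and 99 in replicate 2 alone. *Cited2* encodes a transcriptional co-regulator that binds CBP/p300 and is required for heart septation, and its start was the nearest to 68 of the 85. Fold enrichment in this gap spanned 2.99 to 18.7 (median 5.70) in replicate 1 and 3.02 to 23.1 (median 5.78) in replicate 2. The highest region, whose sequence is the first printed above, lay 1122 kb from the *Cited2* start. The densest 100 kb of the gap held 20 regions, at a median of 181 kb from *Cited2*.

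The gap between *Slc10a2* and *Efnb2*, chr8:5105352-8617433, followed with 77 shared regions (95 and 84 in replicates 1 and 2). *Efnb2* encodes ephrin-B2, a ligand of arterial endothelium, and was nearest to 60 of them. Median fold enrichment was 5.70 and 4.78, and the highest region, 357 kb from *Efnb2*, reached 17.4 and 17.1. It carried both a GATA and an NKX2-5 match, as printed above, and lay within the densest 100 kb, which held 15 regions.

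Next came gaps next to adhesion and guidance receptors. Between *Adgrl2*, which encodes the adhesion receptor latrophilin 2, and *Adgrl4*, an adhesion receptor of endothelial cells, lay 74 shared regions (86 and 88), of which 49 were nearest *Adgrl2* and 25 nearest *Adgrl4*. The gap on the other side of *Adgrl2*, towards *Ttll7*, held another 54 (66 and 63). *Adgrl2* was thus the gene flanked by the most distal regions, 128 in its 2 gaps, and the nearest start to more of them than any other gene, 77. The gap between the ephrin receptor gene *Epha7* and *Map3k7*, which encodes the kinase TAK1 of TGF-beta and BMP signalling, held 73 (86 and 89). Its highest region had 23.4 and 21.1 and lay 1282 kb from *Map3k7*.

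Between *Zeb2*, a repressor active in neural crest and in epithelial-mesenchymal transition, and the activin receptor gene *Acvr2a* lay 73 shared regions (87 and 87), 39 nearest *Zeb2* and 34 nearest *Acvr2a*. The highest of them, 315 kb from *Acvr2a*, had 19.0 in replicate 1 and 28.7 in replicate 2, a wide difference between replicates. Between *Sel1l* and *Flrt2*, which encodes a membrane protein needed for the integrity of the epicardium, lay 71 (92 and 87), 48 of them nearest *Flrt2*. These are the longest of the leading gaps, with 3.50 and 3.64 Mb of eligible sequence, and their densities of 2.09 and 1.95 per 100 kb were close to the 1.73 of all eligible sequence.

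The gap between *Myc* and *Gsdmc*, chr15:61990375-63775967, was denser. It held 66 shared regions (82 and 74) at 4.07 per 100 kb, 50 of them nearest *Myc*, a growth-promoting transcription factor. Of these regions, 52 overlapped a lncRNA gene, mostly *Pvt1*. Its densest 100 kb held 27 regions at a median of 152 kb from the *Myc* start, the most in any such window of the 15 leading gaps. The highest region, with 27.7 and 24.4, lay outside this cluster, 743 kb from *Gsdmc*.

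**Figure D3:**
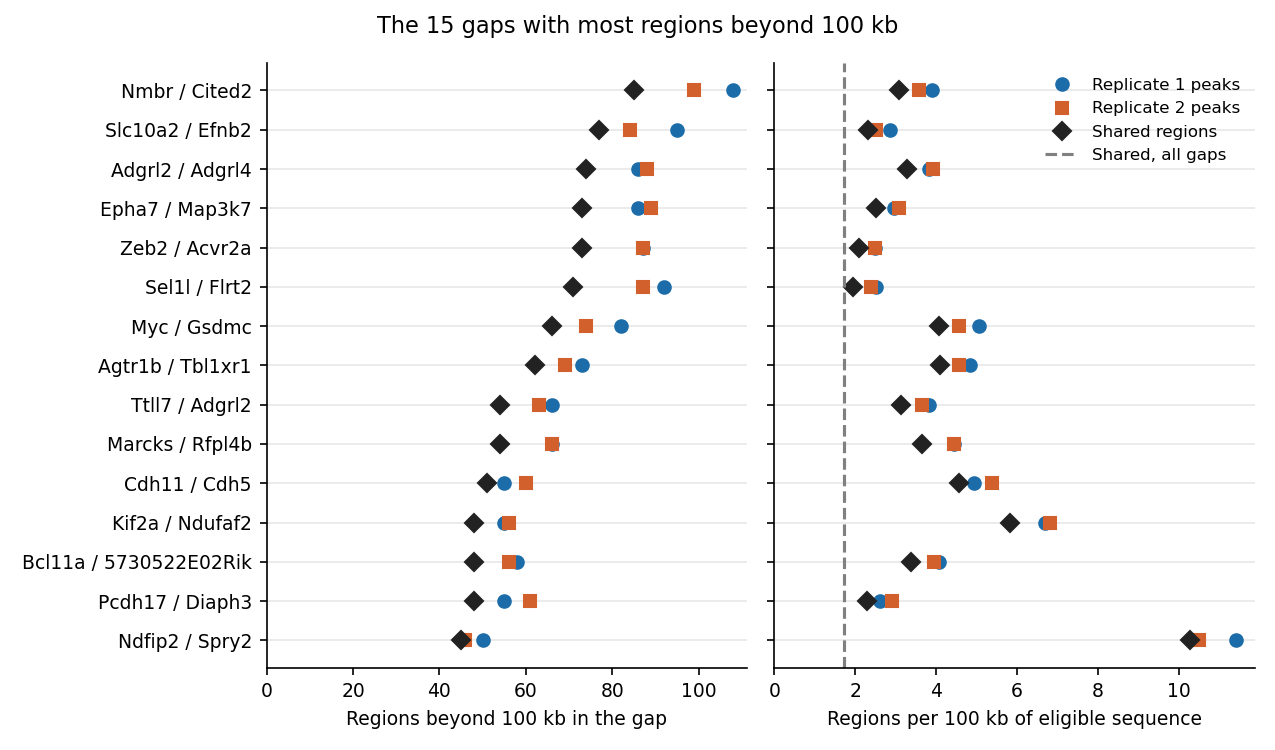
Distal regions (left, number; right, regions per 100 kb of eligible sequence) in the 15 gaps that held the most, for replicate 1 peaks, replicate 2 peaks and shared regions, with each gap named by its flanking genes. Shared counts run from 85 for *Nmbr* to *Cited2* down to 45 for *Ndfip2* to *Spry2*, and all 15 densities lie above the dashed line at 1.73 for all gaps. The gaps were picked by count, which favours high density.

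The other leading gaps held 45 to 62 shared regions. Between *Agtr1b* and *Tbl1xr1*, the latter a subunit of nuclear co-repressor complexes, lay 62 (73 and 69), and 1 region 140 kb from *Tbl1xr1* reached 31.8 and 35.9. Between *Marcks*, which encodes an actin-binding substrate of protein kinase C, and *Rfpl4b* lay 54 (66 and 66), the highest with 28.8 and 31.2. The gap between the cadherin genes *Cdh11*, of mesenchyme, and *Cdh5*, of endothelium, held 51 (55 and 60) at 4.57 per 100 kb, 28 nearest *Cdh11* and 23 nearest *Cdh5*.

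A further 3 gaps held 48 each. That between *Kif2a* and *Ndufaf2* had 55 and 56 peaks in the replicates and 5.84 regions per 100 kb. Of its 48 regions, 18 were nearest *Kif2a*, none nearest *Ndufaf2* and 30 nearest *Smim15*, which does not flank the gap. By position, 9 lay in a RefSeq protein-coding gene body and 34 kept to the limits with RefSeq genes added. The gap beside *Bcl11a*, a transcription factor of blood and brain, had 58 and 56, and that between *Pcdh17* and the formin gene *Diaph3* had 55 and 61, 41 of the shared regions nearest *Diaph3*.

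The gap between *Ndfip2* and *Spry2*, chr14:105309299-105891946, stood apart within this group. It held 45 shared regions (50 and 46) in only 0.438 Mb of eligible sequence, 10.3 per 100 kb. *Spry2* encodes an inhibitor of receptor tyrosine kinase signalling, and *Ndfip2* an adaptor of ubiquitin ligases. Its median fold enrichments of 7.33 and 6.79 were above those of all distal regions, and its highest region, 164 kb from *Spry2*, had 38.8 and 30.7. Of the 15 leading gaps, 14 were also among the first 15 in each replicate alone. Together these gaps held 929 regions, or 7.29% of all, in 4.16% of the eligible sequence, which is partly built in because they were picked by count.

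**Figure D4:**
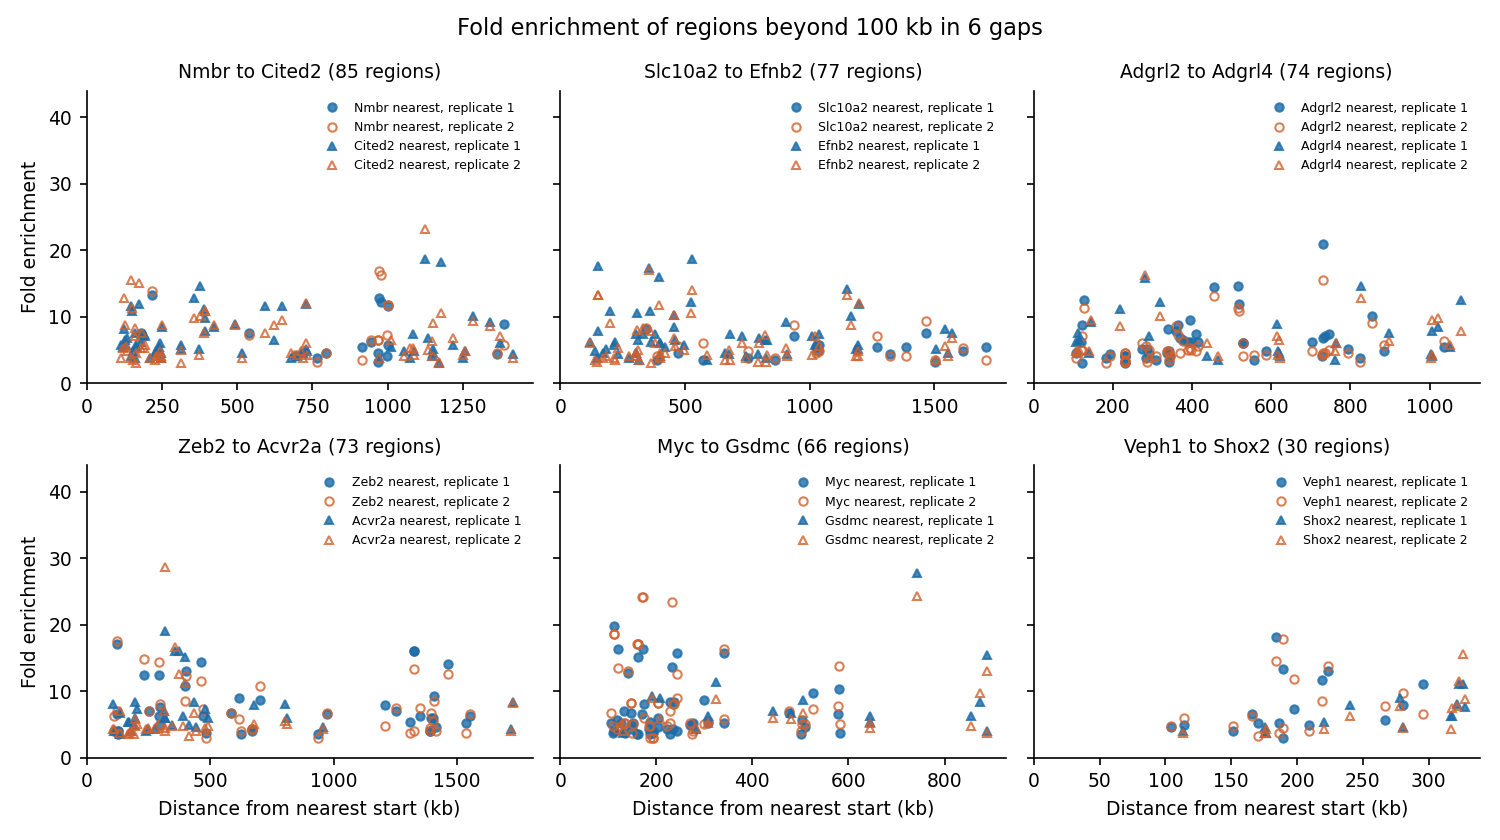
Fold enrichment of each distal region (replicate 1 filled, replicate 2 open) against distance from the nearest protein-coding start (kb) in 6 gaps, with circles for regions nearest the first gene named and triangles for those nearest the second. Regions span the whole distance range of each gap, and the highest of the *Myc* to *Gsdmc* gap lies 743 kb from a start with 27.7 and 24.4.

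When gaps were ordered by density in place of number, shorter gaps led. Among gaps with at least 10 distal regions, the highest density was 37.6 per 100 kb between *Gadd45a* and *Serbp1*, where 11 shared regions lay in only 0.0292 Mb, all of them in the non-coding gene *A430010J10Rik*. Replicate 1 had 8 peaks there, fewer than the shared regions, and replicate 2 had 12. A peak can be cut by several of the other replicate, and whether this gave the difference was not tested. Between *Pawr* and *Syt1* lay 13 (20.1 per 100 kb), and between *Rad51b* and *Zfp36l1*, which encodes an mRNA decay factor, lay 27 (13.6 per 100 kb). Densities over such short stretches rest on few regions.

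The other 7 of the 10 densest gaps held 11 to 30 shared regions. The gap between *Tbx20*, a T-box factor of heart muscle, and *Gm10181* held 13 shared regions (18 and 13 in the replicates), 9 of them nearest *Tbx20* and 4 nearest *Gm10181*. Fold enrichment in this gap was above that of all distal regions, with medians of 10.3 in replicate 1 and 8.04 in replicate 2. Its highest region, with 32.1 and 28.7, was nearest *Gm10181*, and the highest of those nearest *Tbx20* had 18.7 and 18.6. The gap between *Mycn*, which drives proliferation of embryonic heart muscle, and *Ddx1* held 13 (15 and 12), 6 nearest *Mycn* and 7 nearest *Ddx1*, with medians of 6.79 and 6.54. Between *Ccnd2*, encoding a D-type cyclin, and *Parp11* lay 11 (15 and 13), 3 nearest *Ccnd2* and 8 nearest *Parp11*, with medians of 9.24 and 7.54. The highest, with 29.9 and 30.4, was nearest *Parp11*. The gaps between *Dyrk2* and *Cand1*, *Trabd2b* and *Gm12830*, *Disc1* and *Sipa1l2*, and *Serp2* and *Lacc1* held 21, 13, 15 and 30.

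In the gene desert between *Veph1* and *Shox2* lay 30 distal regions (36 peaks in each replicate alone), 6.23 per 100 kb, with 16 nearest *Veph1* and 14 nearest *Shox2*. Their median fold enrichments were 6.25 and 6.28.

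Some long stretches held nothing. The longest eligible sequences without a shared region were those between *Cbln2* and *Gm5096* (0.843 Mb), between *Gm12887* and *9530002B09Rik* (0.798 Mb), and between *9130204L05Rik* and *Pglyrp3* (0.724 Mb). The last had 1 peak in replicate 1, and the others had none in either replicate. Because reads of low mapping quality were removed, an empty stretch is a place where no peak was listed, not DNA shown to be closed.

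Assigned to the nearest protein-coding start, distal regions fell to 1996 of the 2745 genes that had eligible sequence (72.7%), and 408 genes (14.9%) had at least 10, with a median of 2. The nearest start belonged to a flanking gene for 12529 regions and to another gene for 212. After *Adgrl2*, *Cited2* (68), *Myc* (62), *Efnb2* (60), *Tbl1xr1* (59) and *Flrt2* (56) were nearest to the most. Nearness does not say which gene a region acts on, and the gene lists that follow describe position only.

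Genes encoding cardiac transcription factors had distal regions in larger numbers than the median gene, and also more eligible sequence. Of the 50 listed, 34 had eligible sequence, and 29 of these (85.3%) had a distal region and 15 (44.1%) at least 10, against 72.7% and 14.9% of all genes. Their median was 9 regions per gene, and their density was 2.79 per 100 kb (3.52 and 3.42 in the replicates alone), against 1.73 (2.18 and 2.11) for all. Their median eligible sequence was 238 kb, against 119 kb over all genes, and no test was run over this or any other list. Those with the most were *Irx1*, an Iroquois homeobox gene, with 25 regions (30 and 33), *Meis1*, a homeobox partner of cardiac factors, with 25 (34 and 33), and the nuclear receptor genes *Nr2f1* and *Nr2f2*, with 23 each (32 and 29, and 31 and 28). *Nr2f2* is known as a regulator of atrial identity.

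The height of the regions differed within this list, and the genes named next were chosen after their values were seen. Among the 15 genes with at least 10 regions, the median fold enrichment in replicate 1 was highest for *Tbx18*, of the epicardium and sinus venosus, with 17 regions at 9.24 (6.54 in replicate 2), *Irx4*, of ventricular muscle, with 17 at 8.42 (6.03), and *Mef2c*, a muscle transcription factor, with 22 at 8.01 (6.54). In replicate 2, *Sox4* (6.28) and *Isl1* (6.16) had higher medians than *Irx4*, so this order held only in part. The highest region nearest *Mef2c*, 159 kb away at chr13:83344486-83345388, had 26.3 and 29.9. Genes with fewer regions reached similar medians in replicate 1. *Hey2*, of compact ventricular muscle, had 9 regions with medians of 11.4 and 9.05, and *Tbx20* had 9 with 9.51 and 6.54. *Meis2* had 8 with 8.56 and 5.78, and *Irx3* had 5 with 8.96 and 5.28. The replicate 2 median of *Irx3* equalled that of all distal regions. The remaining 5 of the 34 genes had no shared region. *Zfpm2* had no shared region in 156 kb of eligible sequence, and *Irx6*, *Msx1*, *Prrx1* and *Snai2* had none in 58.3, 7.08, 14.0 and 0.392 kb.

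Of 36 genes encoding contractile and conduction proteins, 9 had eligible sequence, against 2745 of all 21924 protein-coding genes. All 9 had a distal region, and 4 had at least 10, against 72.7% and 14.9% of all genes, with a median of 7 and 2.18 regions per 100 kb (2.51 and 2.76). Their median eligible sequence was 454 kb, against 119 kb over all genes. The most lay near the potassium channel gene *Kcnj2*, with 19 (20 and 28), the gap junction gene *Gja1*, with 16 (17 and 19), *Nebl*, which encodes the Z-disc protein nebulette, with 16 (15 and 21), and the calcium release channel gene *Ryr2*, with 15 (17 and 16). The highest region nearest *Gja1*, 218 kb away at chr10:56597050-56597823, had 22.0 and 19.9. That nearest *Kcnj2*, 708 kb away, had 21.2 and 22.6.

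Among 26 secreted signals with eligible sequence, 23 (88.5%) had a distal region and 6 (23.1%) at least 10, against 72.7% and 14.9% of all genes, at 2.83 per 100 kb (3.54 and 3.36). Their median eligible sequence of 239 kb was also longer than the 119 kb over all genes. *Bmp2*, a signal for endocardial cushion formation, and *Inhba*, which encodes an activin subunit, had 28 each (34 and 36, and 33 and 35). *Slit2*, a guidance ligand, had 22 (24 and 27), and *Jag1*, a Notch ligand, had 21 (28 and 23). The highest region nearest *Bmp2*, chr2:133429316-133430269, lay 122 kb away and had 22.3 and 25.6.

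The endothelial and blood lists were dense but small. Of 9 endothelial and endocardial genes with eligible sequence, 8 (88.9%) had a distal region and 2 (22.2%) at least 10, against 72.7% and 14.9% of all genes, at 3.49 per 100 kb (4.199 in each replicate), led by *Cdh5* (23), the VEGF co-receptor gene *Nrp1* (15), *Klf4* (8) and *Npr3* (7). The median eligible sequence was 153 kb for this list and 244 kb for the blood list, against 119 kb over all genes. The 4 blood genes with eligible sequence had 4.36 per 100 kb (4.997 and 5.09), led by *Ptprc* (22), *Runx1* (15) and *Kit* (7). Nearness is a loose guide here, since no shared region lay within 1 kb of a start of *Ptprc* itself. For *Runx1*, a factor of blood stem cell emergence, the replicates differed, with medians of 5.98 in replicate 1 and 11.3 in replicate 2.

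Neural and sensory transcription factors, listed as a contrast, were below the cardiac list. Of 20 with eligible sequence, 14 (70%) had a distal region and 3 (15%) at least 10, with a median of 2 and 1.44 regions per 100 kb (1.90 and 1.63), close to or below the values of all genes. Even so, *Sox2* had 22 (29 and 22), and *Pou3f3*, *Pou3f2* and *En1* had 16, 13 and 8. The cadherins and protocadherins show how count and density diverge. Of 23 such genes, 12 (52.2%) had at least 10 distal regions, against 14.9% of all genes, but the list had 36.1 Mb of eligible sequence and thus 0.718 per 100 kb (0.914 in each replicate). *Cdh11* had 42, *Cdh2* and *Cdh5* 23 each, and *Cdh6* 21.

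Receptors of guidance cues and matrix genes had 1.96 per 100 kb (2.42 and 2.33), near the value for all genes, with 17 of 22 (77.3%) having a distal region, 8 (36.4%) at least 10, against 72.7% and 14.9% of all genes, and a median of 5 in a median of 195 kb of eligible sequence. Their total was carried by *Adgrl2* (77), *Flrt2* (56), *Epha7* (44) and *Adgrl3* (32). An older symbol of *Adgrl2* in this list matched no gene. Housekeeping genes almost never had eligible sequence, and the single one of 30 that did, *Ndufa4* of the respiratory chain, had 8 regions (10 and 10) at 0.580 per 100 kb.

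**Figure D5:**
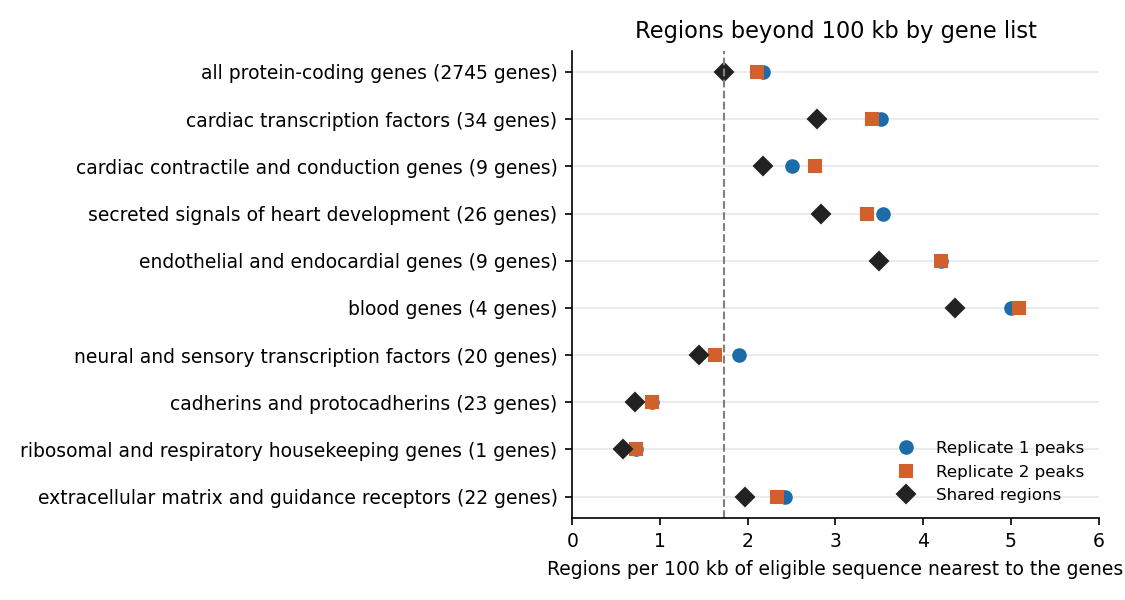
Distal regions per 100 kb of the eligible sequence nearest to the genes of each list, for replicate 1 peaks, replicate 2 peaks and shared regions, with the number of genes that have eligible sequence. Against the dashed line at 1.73 for all genes (shared regions), the shared densities of the blood (4.36), endothelial (3.49), secreted signal (2.83) and cardiac transcription factor (2.79) lists are higher and that of cadherins and protocadherins (0.718) lower.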

How the data were processed

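Per the labels and the methods, the authors trimmed single-end reads with Trim Galore 0.6.6 and Cutadapt, aligned them to GRCm38/mm10 with Bowtie2 2.4.2, discarded duplicate and poorly mapped reads with SAMtools 1.12, and ran MACS2 on each replicate with no local background. The deposited lists do not show the p-value limit and read extension that the methods state: their lowest −log10 p was 3.32 in replicate 1 and 2.98 in replicate 2, their lowest −log10 q 1.71 and 1.37, and their shortest peaks 200 bp, so the settings behind them are uncertain. In the deposited lists, fold enrichment is the ratio at a summit, the −log10 p and −log10 q are those of the peak caller, and the score is the scaled −log10 q. The lists hold no read totals, so no counting interval was computed. Here, peaks were intersected, placed against GENCODE M21 and RefSeq genes, and searched for motifs in the GRCm38 sequence of RefSeq, with Python 3.11.15, NumPy 2.4.6, pandas 2.3.3 and SciPy 1.17.1; plots used Matplotlib 3.10.9. Where several peaks overlapped a region, the strongest gave its value. The overlap, distance and motif code was tested on simulated data. Alternatives were stricter q and p limits, a reciprocal overlap, whole replicate 1 peaks, each replicate alone, starts of all transcripts, midpoints for the gene body criterion, a limit of 200 kb, replicate 2 summits, wider motif windows and, added after seeing the data, RefSeq genes. No test between groups was possible. The members, gene lists and rules were chosen with earlier results of these data known. Named are the 15 gaps with the most regions, the 10 densest with at least 10, the 3 longest without any, the 10 highest, 3 farthest and 2 lowest regions, the 2 on each side of the limit, the 4 leading genes of each list, the 5 leading non-coding genes and the *Shox2* gap. Further cardiac transcription factor genes, those with high medians or no region, were named after their values were seen, as were the highest regions of some listed genes. A gene that this rule names in the blood list is not reported here. Whether the replicates came from separate litters is not given.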

Additional observations from a re-analysis of the deposited data

Results flagged for a closer look

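Chromosome X was left out of the distal regions, which were taken from autosomes, and was looked at separately because it is data the comparisons do not use. There, 258 of 2211 shared regions (11.7%) met the same criteria. They were as high as on autosomes, with median fold enrichments of 5.98 and 5.28, but sparse, at 0.442 per 100 kb of 58.4 Mb of eligible sequence against 1.73 on autosomes. The gaps with the most were those between *H2al1j* and *Bcor* (26) and between *Egfl6* and *Tmsb4x* (15).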

How the results depend on the processing

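Under the alternatives the counts moved mainly with stricter peaks and with distance. With −log10 q of at least 10, 4779 distal regions remained (10.8% of shared regions, 0.649 per 100 kb, medians 9.51 and 8.30), 116 gaps held at least 10, the 50 leading gaps held 19.0%, 1.38% had a CTCF match, and the ratio of density at 100 to 200 kb to that beyond 500 kb was 3.32 in place of 2.98. A limit of 200 kb gave 7247 regions (7.499%, 1.37 per 100 kb) in 762 gaps, 274 with at least 10, with 25.4% in the 50 leading gaps, 1.48% with a CTCF match and 16.2% in lncRNA genes. With p of at most 0.00001, the share was 13.1%, the density 1.60 and the 50 leading gaps held 17.7%. With a reciprocal overlap of at least 50%, the values were 13.7%, 1.54 per 100 kb, 1.68% with a CTCF match, 16.9% in lncRNA genes and a ratio of 2.84. Whole replicate 1 peaks gave a share of 13.4%, and starts of all transcripts gave 12.5% with 18.4% in the 50 leading gaps. RefSeq protein-coding genes, added after seeing the data, gave 12.7%, with 17.995% in the 50 leading gaps and 17.1% in lncRNA genes. CTCF matches were in 1.40% at replicate 2 summits and 2.90% with 100 bp on each side.

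With either replicate left out, the values ranged from 15556 to 16043 regions, 13.9% to 13.9% of peaks, 2.11 to 2.18 per 100 kb, 1418 to 1420 gaps with any and 556 to 561 with at least 10, 17.1% to 17.2% in the 50 leading gaps, 1.41% to 1.52% with a CTCF match, 17.0% to 17.3% in lncRNA genes and ratios of 2.78 to 2.95, with medians of 5.16 (replicate 1) and 4.78 (replicate 2). Of 165 counts of the 15 leading gaps under alternatives, 147 stayed within 1.5 times, and 18 did not (15 at −log10 q of at least 10, 2 at 200 kb and the *Kif2a* to *Ndufaf2* gap, with 18 in place of 48, by nearest start). No paired analysis was possible because the only group holds both samples and nothing was contrasted. The lists give no depth, so unshared low peaks cannot be told from chance differences in sampling.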
